A study of Mus musculus with 18 samples.

Results

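Transcripts were followed that mark neutrophils, the short-lived white blood cells that enter tissue in the first hours after damage, in satellite cells sorted from mouse muscle. The 10 genes S100a8, S100a9, Lcn2, Csf3r, Cxcr2, Il1r2, Mmp8, Ltf, Ngp and Retnlg were chosen by symbol, through every probe set that the annotation of the array maps to that symbol alone. A single probe set represented each of 9 genes, so that 9 of the 45101 probe sets on the array, and 9 of its 18194 gene symbols, are described. The level of Retnlg was not analysed here.

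Neutrophils are made in the bone marrow, where their granule proteins are transcribed in turn as the cell matures: azurophil proteins such as myeloperoxidase in promyelocytes, then specific granule proteins such as lactoferrin (Ltf) and neutrophilic granule protein (Ngp) in myelocytes and metamyelocytes, then gelatinase granule proteins. The mature cell that leaves the marrow has largely stopped making these transcripts but is rich in S100a8 and S100a9, whose products pair as calprotectin, and carries receptors for granulocyte colony-stimulating factor (Csf3r) and CXC chemokines (Cxcr2). Satellite cells, the stem cells of skeletal muscle, are not known to make most of these products.

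The cells came from the tibialis anterior muscle of female mice, 3 to 6 months old by the labels and 3 months old by the methods of the sort. Wild type (WT) mice were C57Bl/6 x DBA2 hybrids and Sdc4-/- mice, which lack syndecan-4, were on C57Bl/6, so that genotype and strain background cannot be told apart. Muscle was left uninjured or injected with barium chloride 12 h or 48 h before harvest, and cells were sorted by an antibody against syndecan-3, with no leukocyte antibody named in the methods. Each of the 6 groups had 3 arrays, and the authors removed 1 uninjured WT array, taken here to be replicate 3, which leaves 17.

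All levels are log2 GCRMA signals. Values of about 2 to 3 are near the background of the array and have no reliable order, and levels of different probe sets cannot be set against each other. The arrays differed in how much signal they held. Between 2832 and 3982 probe sets exceeded 5 on the WT 12 h arrays, against 7213 to 7620 on the uninjured WT arrays and 5076 to 7864 on the Sdc4-/- arrays, and the spiked hybridization controls averaged 13.54 to 14.30 on the WT 12 h arrays against 7.86 to 8.94 on the uninjured WT arrays. The lowest of these counts was that of WT 12 h replicate 2, whose Actb 3' control read 3.98, against 8.37 and 11.81 on the other two WT 12 h arrays. Of the 2 probe sets of Sdc4, 1 read 6.88 to 8.11 on the WT 48 h arrays, 3.39 to 6.53 on the Sdc4-/- arrays and 3.71 to 5.20 on the other 5 WT arrays. The other read 5.59 to 7.62, 2.41 to 2.60 and 2.36 to 3.64 on the same arrays, so that both separate the genotypes at 48 h and neither does on every array of the earlier times. In sorted bulk cells, fewer neutrophils and less transcript per neutrophil cannot be told apart.

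The 9 transcripts did not follow 1 course. Ngp and Ltf, transcripts of maturing marrow neutrophils, were highest in uninjured muscle and fell after injury, whereas S100a8, S100a9, Lcn2, Il1r2 and Csf3r had their highest means in Sdc4-/- cells at 12 h. Mmp8 and Cxcr2 stayed close to background. The plot of the 9 transcripts by array shows both courses.

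**Figure D1:**
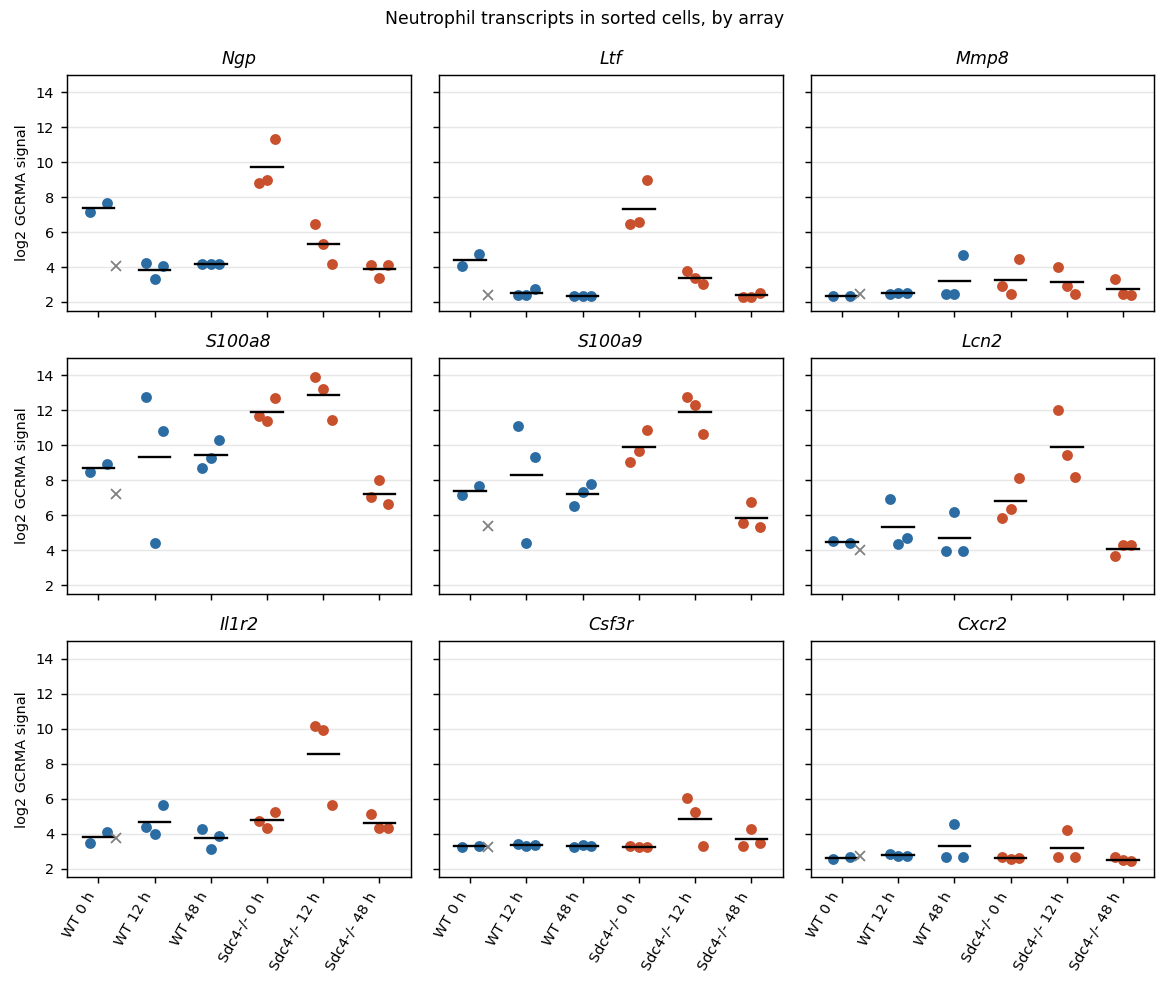
Log2 GCRMA signal (y axis) of 9 neutrophil transcripts in the 6 groups (x axis), with 1 point per array, a bar at the group mean and a grey cross for the uninjured WT array that was left out. Ngp and Ltf are highest in uninjured Sdc4-/- cells, the means of S100a8, S100a9, Lcn2, Il1r2 and Csf3r are highest in Sdc4-/- cells at 12 h, and WT 12 h replicate 2 lies far below the other arrays of its group for S100a8 and S100a9.

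Ngp, a cathelin-related protein stored in specific granules, read 7.12 and 7.65 in uninjured WT cells and 8.78, 9.0 and 11.33 in uninjured Sdc4-/- cells. After injury it read 3.29 to 4.20 in WT cells at 12 h and 4.17 in each WT array at 48 h, and in Sdc4-/- cells 6.44, 5.32 and 4.16 at 12 h and 3.39 to 4.13 at 48 h. Every uninjured array in the fit was therefore above every injured array, in both genotypes. The order of the means ran from uninjured Sdc4-/- through uninjured WT to Sdc4-/- at 12 h, each separated from the next by its arrays, and then to the 3 remaining groups, which lay between 3.85 and 4.17. Ngp fell in WT cells by 3.54 ± 0.72 (SE) on the log2 scale at 12 h (adjusted p = 0.00259) and by 3.22 ± 0.72 at 48 h (adjusted p = 0.0124). Among Sdc4-/- cells it fell by 4.40 ± 0.64 at 12 h (adjusted p = 0.0016) and fell by 5.83 ± 0.64 at 48 h (adjusted p = 2.53e-04).

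Ltf encodes lactoferrin, the iron-binding protein of specific granules. It read 4.07 and 4.76 in uninjured WT cells and 6.45, 6.55 and 8.95 in uninjured Sdc4-/- cells. In WT cells it was at background at 12 h (2.40, 2.41 and 2.76) and at 48 h (2.36 to 2.37), and in Sdc4-/- cells it read 3.79, 3.38 and 3.02 at 12 h and 2.30 to 2.54 at 48 h. The uninjured groups did not overlap each other or any injured group. Ltf fell in WT cells by 1.90 ± 0.57 at 12 h (adjusted p = 0.0205) and by 2.06 ± 0.57 at 48 h (adjusted p = 0.0338), and in Sdc4-/- cells fell by 3.92 ± 0.51 at 12 h (adjusted p = 6.95e-04) and fell by 4.93 ± 0.51 at 48 h (adjusted p = 1.59e-04). As the injured WT values lie at the floor of the array, the size of the WT change is bounded by that floor.

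The WT falls of Ngp and Ltf depended on which uninjured arrays were used. The array that was left out read 4.03 for Ngp and 2.37 for Ltf, at the level of the injured WT arrays. With all 18 arrays the WT changes of Ngp were -2.42 at 12 h (adjusted p = 0.0657) and -2.10 at 48 h (adjusted p = 0.285), those of Ltf were -1.21 (adjusted p = 0.169) and -1.38 (adjusted p = 0.324), and none was called. For Sdc4-/- cells the falls of both genes kept their calls under every alternative but one: with only the 2 groups compared in the fit, the adjusted p at 12 h was 0.0927 for Ngp and 0.074 for Ltf.

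Ngp and Ltf lie on the same chromosome and moved together, and C/EBP factors are known regulators of granule genes in maturing neutrophils, so the bases before their start sites are shown. Each line gives the 250 bases upstream of the RefSeq start (GRCm38.p6), 5' to 3' on the gene's strand, with matches to TTNNGNAA, a C/EBP core, on either strand in capitals.
Ngp (chr9:110419558-110419807, + strand): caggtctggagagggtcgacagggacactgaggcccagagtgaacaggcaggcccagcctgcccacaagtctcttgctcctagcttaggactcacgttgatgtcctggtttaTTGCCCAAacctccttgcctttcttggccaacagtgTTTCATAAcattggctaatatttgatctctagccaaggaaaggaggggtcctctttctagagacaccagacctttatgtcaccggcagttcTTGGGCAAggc
Ltf (chr9:111019042-111019291, + strand): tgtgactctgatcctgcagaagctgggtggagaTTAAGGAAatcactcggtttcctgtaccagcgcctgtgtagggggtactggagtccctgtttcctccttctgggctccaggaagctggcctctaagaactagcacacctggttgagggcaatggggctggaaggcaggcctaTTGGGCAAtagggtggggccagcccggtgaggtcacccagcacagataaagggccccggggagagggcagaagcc
The Ngp window held 3 matches, which begin 138, 102 and 11 bases before the start, and the Ltf window held 2, which begin 217 and 75 bases before it. Of the 10 genes, whose windows were all found, 7 held at least 1 match, the exceptions being Csf3r, Cxcr2 and Il1r2. The same letters occurred in 36.8% of the 32536 distinct windows of that length, so a match is common.

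Mmp8, the neutrophil collagenase of specific granules, gave little signal. It read 2.32 to 2.50 on the uninjured WT and WT 12 h arrays, and its highest readings were 4.66 in WT 48 h replicate 3, 4.43 in uninjured Sdc4-/- replicate 3 and 4.02 in Sdc4-/- 12 h replicate 1. No change of Mmp8 passed the test.

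S100a8 and S100a9 encode the 2 subunits of calprotectin, the main cytosolic protein of neutrophils, which monocytes also make. S100a8 read 8.46 and 8.96 in uninjured WT cells and 11.67, 11.36 and 12.71 in uninjured Sdc4-/- cells. At 12 h it read 12.73, 4.41 and 10.80 in WT cells and 13.89, 13.24 and 11.47 in Sdc4-/- cells. At 48 h it read 8.68, 9.29 and 10.30 in WT cells and 7.05, 8.01 and 6.64 in Sdc4-/- cells. The Sdc4-/- arrays were thus high before injury and at 12 h, where the groups overlapped, and low at 48 h, where they lay below every uninjured array in the fit, of either genotype.

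S100a9 took much the same course. It read 7.13 and 7.68 in uninjured WT cells, 11.10, 4.44 and 9.34 at 12 h and 6.53, 7.31 and 7.81 at 48 h. The Sdc4-/- arrays read 9.07, 9.67 and 10.89 in uninjured muscle, 12.75, 12.28 and 10.67 at 12 h and 5.54, 6.74 and 5.31 at 48 h. The Sdc4-/- arrays at 12 h and 48 h were far apart, and S100a9 fell between these times by 6.04 ± 1.28 (adjusted p = 0.0152), a call that was lost without Sdc4-/- 12 h replicate 1 (adjusted p = 0.0623) or 48 h replicate 3 (adjusted p = 0.0571). The S100a8 difference between the same groups, -5.63 ± 1.56, just missed the threshold (adjusted p = 0.0553), and 8 of 29 alternatives called it.

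A single array decided what could be said of S100a8 and S100a9 in WT cells. With all 3 WT 12 h arrays the changes from uninjured were 0.60 ± 1.74 for S100a8 (95% CI -3.19 to 4.40) and 0.89 ± 1.43 for S100a9 (95% CI -2.23 to 4.01), both far from the threshold. Without WT 12 h replicate 2, the array with the weak Actb control, they were 3.06 (adjusted p = 0.0203) and 2.81 (adjusted p = 0.0246). The difference of S100a9 between 48 h and 12 h in WT cells moved in the same way, from -1.08 (adjusted p = 0.678) to -3.00 (adjusted p = 0.0288).

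The probe set for S100a8 is one of Affymetrix's _s_at type, whose probes may match more than 1 transcript. The 2 genes are neighbours in the mouse genome and are transcribed towards each other. Their upstream windows are printed in the same way because the 2 transcripts moved together.
S100a8 (chr3:90668821-90669070, + strand): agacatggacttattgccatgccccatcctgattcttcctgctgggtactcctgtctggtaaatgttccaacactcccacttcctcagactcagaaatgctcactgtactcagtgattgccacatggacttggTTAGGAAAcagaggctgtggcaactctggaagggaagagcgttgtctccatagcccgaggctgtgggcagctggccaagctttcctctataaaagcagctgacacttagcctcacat
S100a9 (chr3:90695722-90695971, - strand): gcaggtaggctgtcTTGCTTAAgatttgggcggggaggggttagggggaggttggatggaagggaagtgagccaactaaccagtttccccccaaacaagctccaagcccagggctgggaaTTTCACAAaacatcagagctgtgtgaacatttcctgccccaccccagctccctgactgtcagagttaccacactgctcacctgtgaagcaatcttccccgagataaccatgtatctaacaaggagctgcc
The S100a8 window held 1 match, which begins 117 bases before the start, and the S100a9 window held 2, at 236 and 130 bases.

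Lcn2 encodes lipocalin 2, a specific granule protein that captures bacterial siderophores and that injured epithelia and macrophages also make. It read 4.52 and 4.44 in uninjured WT cells, 6.91, 4.38 and 4.68 at 12 h and 3.96, 6.20 and 3.97 at 48 h. The Sdc4-/- arrays read 5.84, 6.38 and 8.15 in uninjured muscle, 12.02, 9.44 and 8.19 at 12 h and 3.64, 4.31 and 4.30 at 48 h. All 3 Sdc4-/- arrays at 12 h were above every other array, replicate 3 only just above the highest uninjured one. Lcn2 fell in Sdc4-/- cells from 12 h to 48 h by 5.79 ± 0.99 (adjusted p = 0.00463), and with only these 2 groups in the fit the call was lost (adjusted p = 0.058). Its difference between 12 h and uninjured Sdc4-/- cells was 3.09 ± 0.99 and did not pass the test (adjusted p = 0.0948), but did in 4 of 29 alternatives, among them the fit without 12 h replicate 3 (3.93, adjusted p = 0.042).

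The remaining members encode receptors. Il1r2 is the decoy receptor for interleukin-1, made by neutrophils and by some macrophages. It read 3.11 to 5.65 on the 8 WT arrays, 4.30 to 5.25 in uninjured Sdc4-/- cells, 10.16, 9.91 and 5.61 in Sdc4-/- cells at 12 h and 4.32 to 5.13 at 48 h. Replicates 1 and 2 at 12 h were the only arrays with a strong signal, and replicate 3 overlapped the WT 12 h arrays. In Sdc4-/- cells Il1r2 rose by 3.81 ± 0.95 at 12 h (adjusted p = 0.0317) and fell by 3.96 ± 0.95 from 12 h to 48 h (adjusted p = 0.0277). The rise at 12 h lost its call in 7 of 29 alternatives, among them those without 1 of the uninjured Sdc4-/- arrays or without replicate 1 or 2 at 12 h (adjusted p 0.0514 to 0.128), and over all alternatives its adjusted p ran up to 0.24. The fall to 48 h likewise lost its call without replicate 1 or 2 at 12 h or without any 1 of the 48 h arrays (adjusted p 0.0511 to 0.115).

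Csf3r, the receptor for the main growth factor of neutrophils, read 3.24 to 3.42 on all 8 WT arrays and 3.22 to 3.27 in uninjured Sdc4-/- cells. The Sdc4-/- arrays read 6.02, 5.22 and 3.31 at 12 h and 3.29, 4.26 and 3.48 at 48 h. Again replicates 1 and 2 at 12 h stood above the other arrays and replicate 3 did not. The difference from uninjured Sdc4-/- cells, 1.61 ± 0.49, did not pass the test (adjusted p = 0.0801), but without replicate 3 it was 2.38 and passed (adjusted p = 3.72e-04). Cxcr2, the receptor for the CXC chemokines that draw neutrophils into tissue, read 2.40 to 2.82 on 15 of the 17 arrays, 4.57 in WT 48 h replicate 2 and 4.23 in Sdc4-/- 12 h replicate 2, and no change of it passed the test.

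Over the comparisons with uninjured cells, 2 of 9 transcripts were called in WT cells at 12 h, both lower, where 37.5% of all probe sets were called, 23.3% higher and 14.2% lower. At 48 h in WT cells the same 2 were called lower, where 12.5% of all probe sets were called, 5.35% higher and 7.12% lower. In Sdc4-/- cells 3 were called at 12 h, 1 higher and 2 lower, where 6.41% of all probe sets were called (1.26% higher and 5.15% lower), and 2 at 48 h, both lower, where 4.49% were called, 2.18% higher and 2.31% lower. The medians over the 9 transcripts were 0.15 and 0.02 in WT cells at 12 h and 48 h and 0.95 and -2.71 in Sdc4-/- cells, against medians over all genes of 0.09, 0.10, 0.04 and 0.02. Both times share the uninjured arrays of their genotype.

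Between the injured times, 0 of 9 transcripts were called in WT cells, where 12.4% of all probe sets were called (5.74% higher and 6.62% lower). None passed an unadjusted p of 0.05 there either. S100a9, Lcn2 and Il1r2 were called lower in Sdc4-/- cells at 48 h than at 12 h, where 5.98% of all probe sets were called, 5.28% higher and 0.703% lower. For 7 of 9 every 48 h array lay below every 12 h array, which held for 34.2% of all probe sets. All 9 fitted differences were negative, with a median of -1.43 against -0.03 over all genes.

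**Figure D2:**
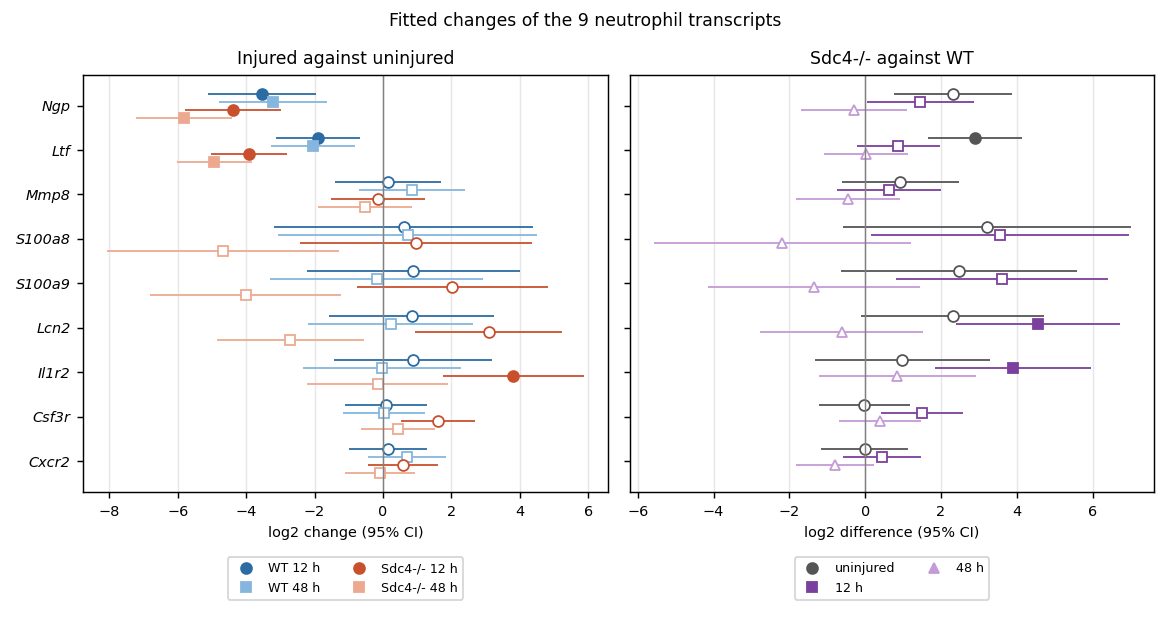
Fitted log2 changes of the 9 transcripts (x axis) against uninjured cells of the same genotype (left) and between genotypes at each time (right), with 95% confidence intervals from the limma fit and filled symbols for adjusted p under 0.05. Ngp and Ltf fell at both times in both genotypes, Il1r2 rose in Sdc4-/- cells at 12 h, and in the right panel Ltf in uninjured cells and Lcn2 and Il1r2 at 12 h were higher in Sdc4-/- cells.

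Sdc4-/- and WT cells were then compared at each time. In uninjured cells 1 transcript was called, Ltf, which was higher in Sdc4-/- cells by 2.90 ± 0.57 (adjusted p = 0.0125), where 3.8% of all probe sets were called, 1.25% higher and 2.55% lower. For 7 of 9 all 3 Sdc4-/- arrays were above both WT arrays, which held for 25.7% of all probe sets. S100a8, S100a9, Lcn2 and Ngp were among these 7 and had differences of 2.31 to 3.20, but none passed the test (adjusted p 0.122 to 0.561). Without WT replicate 1 the Ltf difference was 2.55 and was no longer called (adjusted p = 0.124). Uninjured WT cells had 2 arrays in the fit, which limits this comparison.

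At 12 h, 2 transcripts were called higher in Sdc4-/- cells, where 17.4% of all probe sets were called, 5.47% higher and 11.9% lower. Lcn2 was higher by 4.56 ± 0.99 (adjusted p = 0.0074) and Il1r2 by 3.90 ± 0.95 (adjusted p = 0.0139). The differences of S100a8, S100a9 and Csf3r were 3.55 ± 1.56, 3.61 ± 1.28 and 1.5 ± 0.49, with adjusted p of 0.144, 0.074 and 0.0557, and all 9 fitted differences were positive. The WT 12 h arrays were also those with the fewest probe sets over 5 and the highest hybridization controls. With the level of those controls as a covariate the differences were 3.32 for Lcn2 (adjusted p = 0.495) and 0.92 for Il1r2 (adjusted p = 0.864), and neither was called. The controls averaged 13.54 to 14.30 on the WT 12 h arrays and 9.71 to 12.33 on the Sdc4-/- 12 h arrays. As these ranges do not overlap, that fit cannot separate the covariate from the groups compared. Without WT 12 h replicate 2 the Il1r2 difference was 3.55 (adjusted p = 0.0505), and without WT 12 h replicate 1, the WT array richest in S100a8, the differences of S100a8 and S100a9 were 5.26 and 5.01 and passed the test (adjusted p = 0.022 and 0.0102). Without WT 12 h replicate 2 these 2 differences were 1.1 and 1.68 (adjusted p = 0.44 and 0.178).

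At 48 h no transcript was called between genotypes, where 5.07% of all probe sets were called (3.61% higher and 1.46% lower), and none passed an unadjusted p of 0.05. S100a8 read lower on every Sdc4-/- array than on any WT array, with a difference of -2.19 ± 1.56 (95% CI -5.58 to 1.20). For Ngp and Ltf the differences at 48 h were -0.30 (95% CI -1.70 to 1.1) and 0.02 (95% CI -1.08 to 1.12), between values near background.

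Whether the genotypes differed in their response was tested as the Sdc4-/- change minus the WT change. None of the 9 transcripts was called at 12 h, where 11.1% of all probe sets were called (4.37% higher and 6.72% lower), or at 48 h, where 4.08% were called (2.92% higher and 1.17% lower). At an unadjusted p of 0.05, 1 was lower at 12 h and 3 were lower at 48 h. The share of all probe sets at that unadjusted threshold was not counted, so these counts cannot be set against the array. The nearest to the threshold was Ltf at 48 h, with a difference of -2.87 ± 0.76 (adjusted p = 0.0558), and without any 1 of the uninjured Sdc4-/- arrays this difference passed (adjusted p 0.00468 to 0.0359). Both genotypes were at background for Ltf at 48 h, with means of 2.36 in WT and 2.38 in Sdc4-/- cells. The -2.87 therefore mirrors the uninjured difference of 2.90 and cannot tell a difference in response from the floor of the array. For S100a8 at 48 h the difference was -5.39 ± 2.34 (adjusted p = 0.247), and without WT 12 h replicate 2 it was called (adjusted p = 0.0181). For Il1r2 at 12 h the difference was 2.92 ± 1.42 (adjusted p = 0.21), so that a rise called in Sdc4-/- cells alone was not shown to be a difference in response. Without Sdc4-/- 12 h replicate 3 the differences at 12 h were 4.40 for Il1r2 (adjusted p = 0.0036) and 2.29 for Csf3r (adjusted p = 0.00339), and both were called.

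Other genes of the neutrophil programme were read from lists, with 1 probe set for each gene. Over all 18194 genes read in this way, 1.48% were called higher and 7.23% lower in Sdc4-/- cells at 12 h against uninjured, 2.65% and 2.59% at 48 h, 7.61% and 0.819% from 12 h to 48 h, and 8.68% and 10.4% against WT cells at 12 h. In WT cells against uninjured these shares were 19.6% and 20.8% at 12 h and 5.47% and 9.39% at 48 h. For the difference between genotypes in the response they were 6.32% and 5.7% at 12 h and 3.64% and 1.03% at 48 h. Of 7 measured genes of azurophil granules and their proteinases, 0 were called in either direction in Sdc4-/- cells against uninjured cells at 12 h or 48 h. Elane (neutrophil elastase) read 2.30 to 2.91 on all 17 arrays and Mpo (myeloperoxidase) read 2.25 to 2.38 on 16. The exception was uninjured Sdc4-/- replicate 3, which read 6.48 for Mpo and 4.81 for Ctsg (cathepsin G), and which was also the highest uninjured array for S100a8, S100a9, Lcn2, Ltf and Ngp. Camp, which encodes the cathelicidin of specific granules and is named here after its values were seen, was, like Ngp and Ltf, highest on the uninjured Sdc4-/- arrays: it read 7.59, 6.08 and 9.13 in uninjured Sdc4-/- cells against 4.58 and 5.72 in uninjured WT cells, and fell in Sdc4-/- cells by 3.56 ± 0.67 at 12 h (adjusted p = 0.00721) and by 4.22 ± 0.67 at 48 h (adjusted p = 0.00325). On the injured WT arrays Camp read 3.20 to 5.13, which overlaps the uninjured ones, and its WT changes did not pass the test.

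Of 21 measured genes of later granules and mature neutrophils, 4 rose in Sdc4-/- cells at 12 h (Chil1, Adam8, Stfa2l1 and Hdc) and 1 fell (Camp), with a list median of 1.44 against 0.04 over all genes. Chil1, a chitinase-like protein of specific granules, read 11.74, 9.25 and 8.25 in Sdc4-/- cells at 12 h and at most 6.14 on the other arrays, and rose by 4.47 ± 0.88 (adjusted p = 0.00906). Hdc, the histamine-forming enzyme found in neutrophils, basophils and mast cells, read 11.51, 10.75 and 9.96 at 12 h and at most 7.41 elsewhere, and rose by 4.07 ± 0.96 (adjusted p = 0.0241). Against WT cells at 12 h, 10 of the 21 were higher in Sdc4-/- cells and 0 were lower, with a median of 2.86 against -0.08 over all genes. In that comparison 6 of 6 pan-leukocyte markers (median 3.79) and 7 of 11 macrophage and monocyte markers (median 4.14) were also higher, and 0 were lower. The alternative fits were made for the 9 transcripts and not for the lists. From 12 h to 48 h in Sdc4-/- cells 7 of the 21 fell, among them Chil1, Hdc, Mmp9 and G0s2, and 1 rose, Adam8. Chil3 and Lyz2, which macrophages express strongly, stayed high in Sdc4-/- cells at 48 h, at 12.23 to 12.51 for Chil3 and 12.57 to 13.23 for Lyz2.

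Among 19 measured receptors and adhesion molecules, Trem1 and Csf2rb2 rose in Sdc4-/- cells at 12 h and 0 fell, with a median of 0.90. Trem1, an activating receptor of neutrophils and monocytes, is named after its values were seen. It read 9.57, 8.59 and 7.25 at 12 h against at most 5.34 on the other arrays, and rose by 3.88 ± 0.67 (adjusted p = 0.00414). Against WT cells at 12 h, 9 of the 19 were higher in Sdc4-/- cells and 0 were lower. Fpr2, a formyl peptide receptor, was among them, higher by 5.52 ± 1.26 (adjusted p = 0.00982), while Clec4d and Clec4e, pattern receptors shared with macrophages, read over 10 at 48 h in both genotypes. Of 5 measured subunits of the phagocyte oxidase, 0 were called in Sdc4-/- cells at either time, and 4 were higher in Sdc4-/- than in WT cells at 12 h. Of 6 transcription factors of granulocytes, Cebpd fell at both times in both genotypes, Gfi1 rose at both times and Cebpb at 48 h in WT cells, and Cebpa rose in Sdc4-/- cells from 12 h to 48 h. Gfi1 and Cebpa had no group mean over 5 in any group, so their changes lie at low signal.

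**Figure D3:**
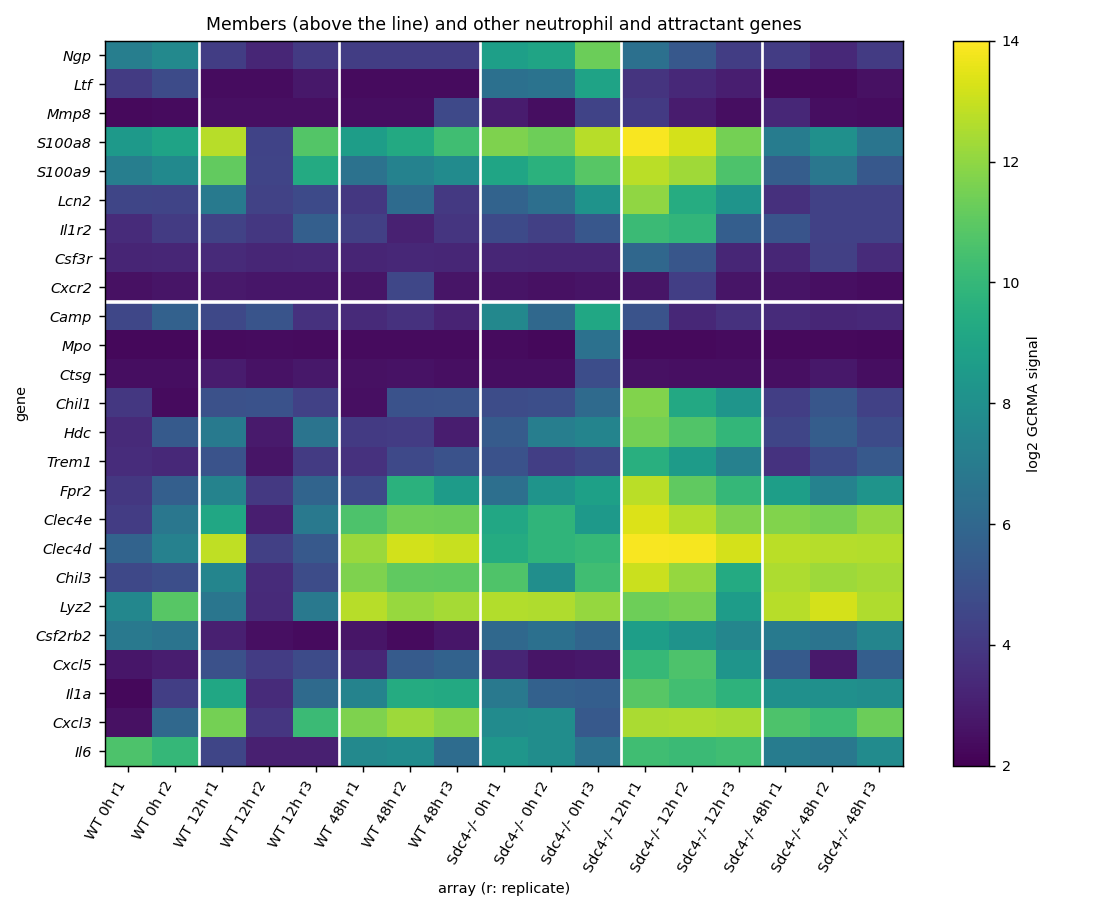
Log2 GCRMA signal (colour) of the 9 transcripts (above the white line) and of 16 other genes of the neutrophil lists (rows) on the 17 arrays (columns, grouped by genotype and time). By group mean, Ngp, Ltf and Camp are highest in uninjured Sdc4-/- cells, and S100a8, S100a9, Lcn2, Il1r2, Chil1, Hdc, Trem1 and Cxcl5 are highest in Sdc4-/- cells at 12 h. Replicate 3 of the latter group lies below at least 1 WT 12 h array for S100a8, S100a9 and Il1r2.

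Genes of signals that draw neutrophils, and of interleukin-1 signalling, were measured in the same cells. Of 13 genes on this list, 5 rose in Sdc4-/- cells at 12 h (Cxcl5, Il1a, Il1rn, Il1rap and Il6) and 0 fell, with a median of 2.45. Il1rn encodes the interleukin-1 receptor antagonist and Il1rap a receptor chain, so neither is an attractant. Cxcl5, a ligand of the receptor encoded by Cxcr2, read 10.04, 10.63 and 8.24 in Sdc4-/- cells at 12 h and at most 5.79 on every other array, and rose by 6.74 ± 0.82 (adjusted p = 4.56e-04). In WT cells 1 rose at 12 h (Cxcl2) and 1 fell (Il6), and at 48 h 4 rose (Cxcl2, Cxcl3, Il1a and Il1rn) and 1 fell (Il6). Csf3, the ligand of the receptor encoded by Csf3r, read 3.36 to 3.59 on all 8 WT arrays and at most 4.49 on the Sdc4-/- arrays.

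The genes whose levels ran most like the mean of the 9 transcripts over the 17 arrays were G0s2, Ripor2, Cd33, Hdc, Fgd3, Mmp9, Wfdc21, Ifitm1, Cxcl13 and Gbp2b, in this order, with Pearson's r from 0.83 to 0.76 among 4563 genes searched. These correlations describe arrays that share groups and signal levels. Within the 9, the correlation with the mean was 0.89 to 0.93 for S100a8, S100a9 and Lcn2, 0.57 to 0.72 for Il1r2, Csf3r, Ltf and Ngp, 0.46 for Mmp8 and 0.18 for Cxcr2, so that the mean mostly tracks the first 3.

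Marker lists of other cells show what else the sorted material held. The log2 of the summed linear signal over the 9 neutrophil transcripts ran from 12.03 to 13.55 in uninjured Sdc4-/- cells, 12.25 to 14.75 at 12 h and 7.81 to 8.82 at 48 h, and from 9.46 to 9.95, 6.86 to 13.17 and 9.19 to 10.63 in the same groups of WT cells. The summed level of 11 macrophage and monocyte markers was not low at 48 h: it ran from 15.06 to 15.33, 13.71 to 14.04 and 14.17 to 14.27 in the 3 Sdc4-/- groups. In WT cells it ran from 10.61 to 13.94 in uninjured muscle, 8.08 to 9.53 at 12 h and 14.41 to 14.74 at 48 h. On the 3 WT 12 h arrays Csf1r, the defining macrophage receptor, read 2.23, 4.50 and 2.12, while Cd14, a monocyte marker of the same list, read 9.27, 2.03 and 6.84, high on the same arrays as S100a8. Beside Cd14, the macrophage marker C1qb also had a WT 12 h group mean over 5. On replicate 2, where Csf1r read 4.50 and Cd14 2.03, the list summed to 8.42. The 6 pan-leukocyte markers summed to 13.34 or more on each Sdc4-/- and WT 48 h array and to 6.51 to 10.21 on the WT 12 h arrays. Of 10 eosinophil and mast cell markers and 8 lymphocyte markers, 0 had a group mean over 5 in any group. The 8 erythroid and platelet markers summed to 7.12 to 10.71 in uninjured WT cells, 6.05 to 7.30 at 12 h and 12.92 to 13.66 at 48 h. In the same groups of Sdc4-/- cells they summed to 11.49 to 11.96, 10.06 to 12.04 and 12.20 to 13.11. Only Pf4 and Ppbp of that list had a group mean over 5. The 11 satellite cell markers summed to 7.89 to 9.63 on the Sdc4-/- arrays, with no called change after injury among them. On the WT arrays they summed to 8.57 to 8.67 in uninjured muscle, 6.94 to 7.65 at 12 h and 8.78 to 9.55 at 48 h. Pax7, Myf5, Chodl and Vcam1 fell in WT cells at 12 h, as did Pax7, Myf5 and Chodl at 48 h, the times at which Ngp and Ltf were called lower. Cdh15 and Sdc4 rose in WT cells at 48 h against uninjured, and Vcam1 and Sdc4 rose there from 12 h to 48 h. Pax7, Myf5 and Chodl were also lower in uninjured Sdc4-/- than in uninjured WT cells. Of this list only Chodl, Vcam1, Sdc3, Sdc4, Cxcr4 and Met had a group mean over 5 in any group, Chodl in uninjured WT cells alone. Pax7, Myf5 and Cdh15 had none, so their changes lie at low signal. Sdc3 encodes the antigen of the sort. The 5 endothelial markers, like Ngp and Ltf, were highest in uninjured muscle within each genotype: they summed to 9.76 to 11.50 in WT and 7.99 to 9.0 in Sdc4-/- cells. At 12 h they summed to 5.20 to 6.53 and 5.44 to 6.70, and at 48 h to 5.45 to 8.06 and 5.46 to 7.63. Unlike for Ngp and Ltf, the highest WT 48 h array lay above the lowest uninjured Sdc4-/- array. Vwf, Kdr and Tek fell in WT cells at both times, and Kdr and Tek fell in Sdc4-/- cells at 12 h and Kdr at 48 h. The 5 fibroblast markers summed to 11.29 to 11.85 in uninjured WT cells, 6.01 to 8.24 at 12 h and 5.63 to 6.55 at 48 h, where Col1a2, Dcn and Lum fell at both times, and to 8.78 to 10.45, 6.29 to 9.29 and 5.47 to 8.81 in the Sdc4-/- groups, where Dcn fell at 48 h. The uninjured WT array left out, which was low for Ngp and Ltf, was also low in both lists, at 5.21 and 5.71. The part of other cell types in the differences between groups was not tested.

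**Figure D4:**
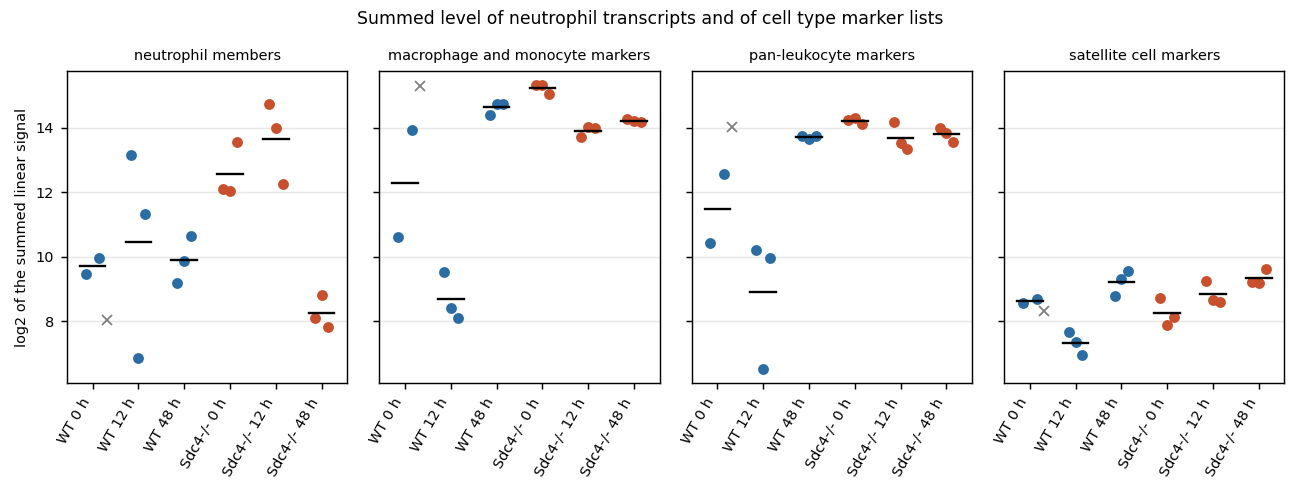
Log2 of the summed linear signal (y axis) of the 9 neutrophil transcripts and of 3 marker lists in the 6 groups (x axis), with 1 point per array, a bar at the group mean and a grey cross for the uninjured WT array left out. The neutrophil sum is 7.81 to 8.82 in Sdc4-/- cells at 48 h, below the other arrays in the fit except WT 12 h replicate 2, while the macrophage sum there is 14.17 to 14.27.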

How the data were processed

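RNA from 5000 cell equivalents of syndecan-3+ cells was amplified by 2 rounds of T7 linear amplification and hybridized to Affymetrix mouse expression arrays. The authors recovered intensities with GCOS and normalized them by GCRMA, and the deposited values are log2 GCRMA signals, used as they stand. Versions of these programs are not given in the sources used here. The uninjured WT array left out was taken to be replicate 3, since the study's tabulated uninjured means match replicates 1 and 2.

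The 6 groups were fitted together by lmFit and eBayes of limma 3.58.1 (R 4.3.3). The fit held 17 arrays, with 11 residual degrees of freedom. P-values were adjusted by Benjamini-Hochberg over 45101 probe sets and called under 0.05. No source says that replicates are separate animals, so the spread behind each p-value may be technical. The number of arrays limits the precision. For lists a gene was represented by its probe set with the highest mean. Of the probe sets 34958 have 1 gene symbol, 932 several and 9211 none.

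The 10 genes and all lists were chosen with earlier results of these data known. Every member is named, with up to 4 genes of each list by the range of group means and the 10 genes most like the members' mean among those with a group mean of at least 6. Genes given as the members of a count, and Camp, Trem1, Trem3, Elane and Csf3, were named after their values were seen. Upstream sequences are from RefSeq (GRCm38.p6). The fit was tested on simulated data.

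The alternatives tried were a fit of all 18 arrays, a fit restricted to the compared groups, robust eBayes with a trend, no moderation of the variance, quantile normalization, a shift by the 75th percentile, a mean of at least 4, the study's threshold (2-fold, p of 0.01), averaging a gene's probe sets, the hybridization controls as a covariate, a replicate block and each array left out. All 18 arrays with that covariate were added after seeing the data.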

Additional observations from a re-analysis of the deposited data

Results flagged for a closer look

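No difference between genotypes in the response of the 9 transcripts passed its test, while other genes of the neutrophil lists did, by the Sdc4-/- change minus the WT change. At 12 h, 2 of 21 later granule genes, 3 of 19 receptors and 4 of 13 genes of the attractant and interleukin-1 list differed. All had the higher change in Sdc4-/- cells, where 6.32% of all genes did so. Of 7 azurophil genes, 5 oxidase subunits and 6 granulocyte transcription factors, 0 differed at 12 h or 48 h. At 48 h Wfdc21 (lower) and Csf2rb2 (higher) did. Outside the neutrophil lists, 4 of 11 satellite cell markers, 1 of 11 macrophage and monocyte markers and 0 of 6 pan-leukocyte markers had the higher change at 12 h. The 3 genes below are those of the neutrophil lists with such a call that the naming rule takes. Csf2rb2, which encodes a beta chain of the interleukin-3 receptor, differed by 6.09 ± 0.45 at 12 h (adjusted p = 1.77e-05) and by 5.04 ± 0.45 at 48 h (adjusted p = 1.03e-04): it read 6.87 and 6.61 in uninjured WT cells and 2.33 to 3.04 on the injured WT arrays, against 5.92 to 6.43 in uninjured and 6.64 to 8.71 in injured Sdc4-/- cells. The uninjured WT array that was left out read 2.36, within the range of the injured WT arrays. Cxcl5 differed by 4.97 ± 1.23 at 12 h (adjusted p = 0.0226). Il6, a cytokine of many cell types, differed by 9.49 ± 0.82 at 12 h (adjusted p = 5.3e-05): it read 10.64 and 10.01 in uninjured WT cells and 3.04 to 4.52 at 12 h, against 6.53 to 8.31 and 10.19 to 10.34 in Sdc4-/- cells. The left-out array read 4.77 for Il6.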

How the results depend on the processing

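Counts are of the 9 transcripts called. With all 18 arrays 0 were called in WT cells at 12 h and 0 at 48 h against uninjured. With the hybridization controls as a covariate 0 were called in WT cells at 12 h, 0 at 48 h, and between genotypes 0 in uninjured cells and 0 at 12 h. The controls averaged 7.86 to 8.94 on uninjured WT, 13.54 to 14.30 on WT 12 h, 11.68 to 12.50 on WT 48 h and 9.72 to 10.30 on uninjured Sdc4-/- arrays. These ranges do not overlap between the groups compared, so that fit cannot separate the covariate from the groups. With all 18 arrays and that covariate, chosen after seeing the data, 0 were called in WT cells at 12 h and 0 at 48 h, and between genotypes 2 in uninjured cells and 0 at 12 h. The WT changes at 12 h then turned to 0.19 for Ltf and 0.12 for Ngp (adjusted p = 0.999 for both, against a range over the alternatives from 1.37e-04 for Ltf and 4.63e-04 for Ngp). There too the controls of the uninjured WT arrays, at most 12.80, lay below those at 12 h. With only the groups compared, where fewer arrays set the spread, the counts were 0 in Sdc4-/- cells at 12 h, 4 at 48 h, between genotypes 0 in uninjured cells and 0 at 12 h, and 2 for the difference in the 48 h change. From 12 h to 48 h in Sdc4-/- cells that fit called 2, S100a8 and S100a9, and not Lcn2 or Il1r2. Quantile normalization gave 1 and 0 in WT cells at 12 h and 48 h and 1 between genotypes at 12 h, which was Csf3r (adjusted p = 0.0392), while Lcn2 and Il1r2 lost their calls (adjusted p = 0.0607 and 0.067). The shift by the 75th percentile gave 5 in Sdc4-/- cells at 12 h and 1 for the difference in the 48 h change. The mean of at least 4, which kept 5 transcripts, gave 1 and 1 in WT cells and 0 between uninjured genotypes. The study's threshold gave 5 in Sdc4-/- cells at 12 h, 2 between uninjured genotypes and 1 for the difference in the 48 h change. Except where the construction of the alternative is named, the cause was not tested.

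With 1 array left out the counts ran from 1 to 4 (WT 12 h), 0 to 2 (WT 48 h), 0 to 1 (WT 48 h against 12 h), 2 to 5 (Sdc4-/- 12 h), 2 to 4 (Sdc4-/- 48 h), 1 to 4 (Sdc4-/- 48 h against 12 h), 0 to 1, 1 to 4 and 0 to 0 (between genotypes in uninjured cells, at 12 h and at 48 h), and 0 to 2 and 0 to 1 (difference in the 12 h and 48 h changes). WT 12 h replicate 2 moved 5 of these 11 counts by over 1.5 times. Of the single-gene values under all alternatives, 2722 kept their side of the threshold, 54 lost a call, 49 gained one and 2 called values turned round. The 2722 include values that changed direction without being called in either fit, such as some of S100a8 in WT cells at 12 h.

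No sign was seen that replicate numbers pair the arrays: over 40 same-numbered pairs the correlation of deviations was -0.13 to 0.17, and 2 exceeded 0.1. With so few arrays in a group this check cannot exclude pairing. With the replicate number as a block the counts were 2, 2, 0, 2, 2, 3, 1, 2, 0, 0 and 0 in the order above, and the rise of Il1r2 in Sdc4-/- cells at 12 h was not called (adjusted p = 0.0532).

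Other probe sets of a gene could not be tried, as each transcript has 1. Limits: values near background carry no order, 2 uninjured WT arrays set the WT baseline, and the Sdc4-/- rise at 12 h rests mostly on replicates 1 and 2.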

Other observations

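Uninjured Sdc4-/- replicate 3 was the only array with a signal for Mpo, at 6.48, and its Ngp and Ltf levels of 11.33 and 8.95 were the highest of all 17 arrays. The 3 uninjured Sdc4-/- arrays held Ngp at 8.78 or more. Trem3, a receptor of the same family as Trem1, read 9.0 and 7.01 on Sdc4-/- 12 h replicates 1 and 2, 3.49 on replicate 3 and 3.39 to 4.72 on all other arrays, the same split between the 12 h replicates as Il1r2 and Csf3r showed. These genes were singled out after their values were seen.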
